A study of Mus musculus with 6 samples.

Results

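The nuclear-encoded subunits of oxidative phosphorylation were examined in the colon of mice that were prone (OP) or resistant (OR) to obesity. Members were taken by gene symbol (Nduf followed by a, b, c, s or v and a number, Sdha to Sdhd, Uqcr, Cox4 to Cox8 followed by a letter, and Atp5), which gave 86 of the 17778 genes in the deposited table. Of these, 39 belong to complex I, 4 to complex II, 8 to complex III, 18 to complex IV and 17 to complex V. *Ndufa4* and *Ndufa4l2* carry complex I names but were counted with complex IV, where the NDUFA4 protein sits. Each group held 3 mice. All 6 mice were male C57BL/6J mice of WT genotype that received the same high-fat diet (60% fat) for 16 weeks and were 21 weeks old at the end, so no lean or chow-fed mouse is part of the comparison. OP and OR mice were the animals with the highest and the lowest weight gain of the fed cohort, and the groups therefore differ by outcome and not by an assigned treatment. The sources used here do not say how the 3 mice of each group were picked for sequencing.

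Oxidative phosphorylation moves electrons from NADH and succinate through complexes I to IV to oxygen, and complex V (ATP synthase) uses the proton gradient that this builds up to make ATP. Most subunits are encoded in the nucleus and imported into mitochondria, while a small set of core subunits of complexes I, III, IV and V is encoded by mitochondrial DNA. In the colon, surface epithelial cells oxidise butyrate from bacterial fermentation in their mitochondria and are a large consumer of oxygen. No mitochondrially encoded gene was among those analysed here, so the account covers the nuclear side of the system.

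Levels are given as FPKM, a fragment number scaled by transcript length and library size, so that those of different genes can be compared per length. Read totals cannot be recovered from FPKM, and the depth of each library is unknown. The FPKM of a mouse summed to 585350 to 600028, with 16287 to 16619 genes above 0. The libraries were uneven. OP mouse 1 stood apart on the first principal component of log2(FPKM + 1), which held 45.9% of the variance, and OP mouse 2 on the second, which held 27.7%. OP mouse 2 was also the mouse with 46.9 FPKM of *Hoxb13*, a transcription factor gene of the hindmost gut, against at most 1.29 in the other 5 mice. Colonocyte markers were detected in all 6 mice, with a summed level of 30267, 17404 and 16001 FPKM in OP mice 1, 2 and 3 and 16398, 29999 and 18532 FPKM in OR mice 1, 2 and 3. *Car1* was a large part of the 2 highest sums (14585 FPKM in OP mouse 1 and 15723 FPKM in OR mouse 2). It was a smaller part in the other mice, with 1054 and 4836 FPKM in OP mice 2 and 3. OR mice 1 and 3 had 5255 and 6339 FPKM of *Car1*. Of the 15 colonocyte markers 11 had a log2 fold change above 0, with a median of 0.16, and 7 were highest in OP mouse 2, 6 in OP mouse 1 and 1 in OR mouse 2. All 12 fibroblast markers and all 12 endothelial markers had a negative log2 fold change in OP mice, with sums of 135 to 225 FPKM in OP mice and 332 to 579 FPKM in OR mice for fibroblasts and of 23.7 to 39.5 FPKM against 42.6 to 75.8 FPKM for endothelium. All 12 smooth muscle markers (2046 to 2958 FPKM in OP mice, 2449 to 4439 FPKM in OR mice) and all 10 goblet cell markers (1171 to 5185 FPKM against 1875 to 7420 FPKM) also had a negative log2 fold change, as did all 7 tested pericyte markers (76.2 to 89.5 FPKM against 104 to 158 FPKM) and 9 of 10 macrophage markers (96.7 to 262 FPKM against 187 to 250.5 FPKM). Of the enteric neuron and glia markers, 7 of 12 had a log2 fold change above 0, with a median of 0.08. The same sign was found for 3 of 9 tested lymphocyte markers (median -0.34) and 1 of 10 adipocyte markers (median -0.49). Over all genes tested, 9475 of 13520 had a negative log2 fold change. In bulk RNA, fewer cells of a type and less RNA per cell cannot be told apart. The part of cell makeup in the values below was not tested.

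Nuclear-encoded subunits were abundant, and no single one passed the test between OP and OR mice. Of the 86 members, 84 passed the filter of at least 0.5 FPKM in at least 3 mice and were tested with limma-trend on log2(FPKM + 1) among 13520 genes. The members that did not pass were *Ndufb4b*, with 0.91 and 2.06 FPKM in OP mice 1 and 2 and listed at 0 in the other mice, and *Cox6a2*, the striated muscle form of a complex IV subunit, with at most 0.33 FPKM. At a fold change of at least 1.2 and a q-value below 0.2, 0 of 84 subunits were higher in OP mice, as were 0 of all genes tested (0.0%). At a fold change of at most 0.83 and the same q-value, 0 of 84 subunits were lower, against 3 of all genes tested (0.0222%). The paper reported more genes in each direction at these thresholds with DESeq2, a test that needs counts. At an unadjusted limma p below 0.05 the counts were still 0 of 84 in each direction, while 68 of all genes tested (0.503%) were higher in OP mice and 477 (3.53%) were lower. The smallest limma q-value of any subunit was 0.945. For 73 of the 84 subunits, the 95% interval of the fold change lay within 1.5-fold either way with the FPKM as deposited. The same held for 5199 of all 13520 genes tested. It also held for 2527 of the 4365 tested genes with a mean of at least 20 FPKM. With other scalings the intervals were not counted.

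The direction of the small differences was uneven. A log2 fold change above 0, meaning a higher mean in OP mice, was found for 62 of 84 subunits (73.8%) and for 4045 of all 13520 genes tested (29.9%). Among the 4365 tested genes with a mean of at least 20 FPKM it was found for 1771, with a median of -0.05. The median log2 fold change was 0.07 over the subunits and -0.10 over all genes tested, a difference of 0.18. That gap depended on OP mouse 1, in which the median deviation from the mean of the 6 mice was -0.25 on the log2 scale over all genes tested and 0.04 over the subunits. Without OP mouse 1, the subunits had a median of 0.06 and all genes tested of -0.01, and 73.8% of the subunits against 47.4% of all genes had a log2 fold change above 0. In 9 of 84 subunits (10.7%) the lowest OP mouse was above the highest OR mouse, against 220 of all genes tested (1.63%). The reverse, the highest OP mouse below the lowest OR mouse, was found in 0 of 84 subunits and in 921 of all genes tested (6.81%). Of the 4365 tested genes with a mean of at least 20 FPKM, 130 had every OP mouse above every OR mouse and 174 every OP mouse below. With median-of-ratios scaling in place of the FPKM as deposited, the count above was 10 of 84 against 3.83% of all genes, of which 5 were among the 9 (*Ndufa5*, *Ndufa6*, *Ndufa12*, *Ndufa13* and *Uqcrh*). With that scaling the median was 0.21 over the subunits and 0.01 over all genes, and 76 of 84 subunits had a log2 fold change above 0. Of the members described below, *Sdhb*, *Cox7a2l*, *Atp5g1*, *Ndufv1* and *Atp5b* were among those that turned from a negative to a positive sign with this shift of all genes. Among the 84 subunits, the highest of the 6 values fell in OP mouse 1 in 26 genes and in OP mouse 2 in 31, but in OP mouse 3 in only 8, fewer than the 9 of OR mouse 3.

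**Figure D1:**
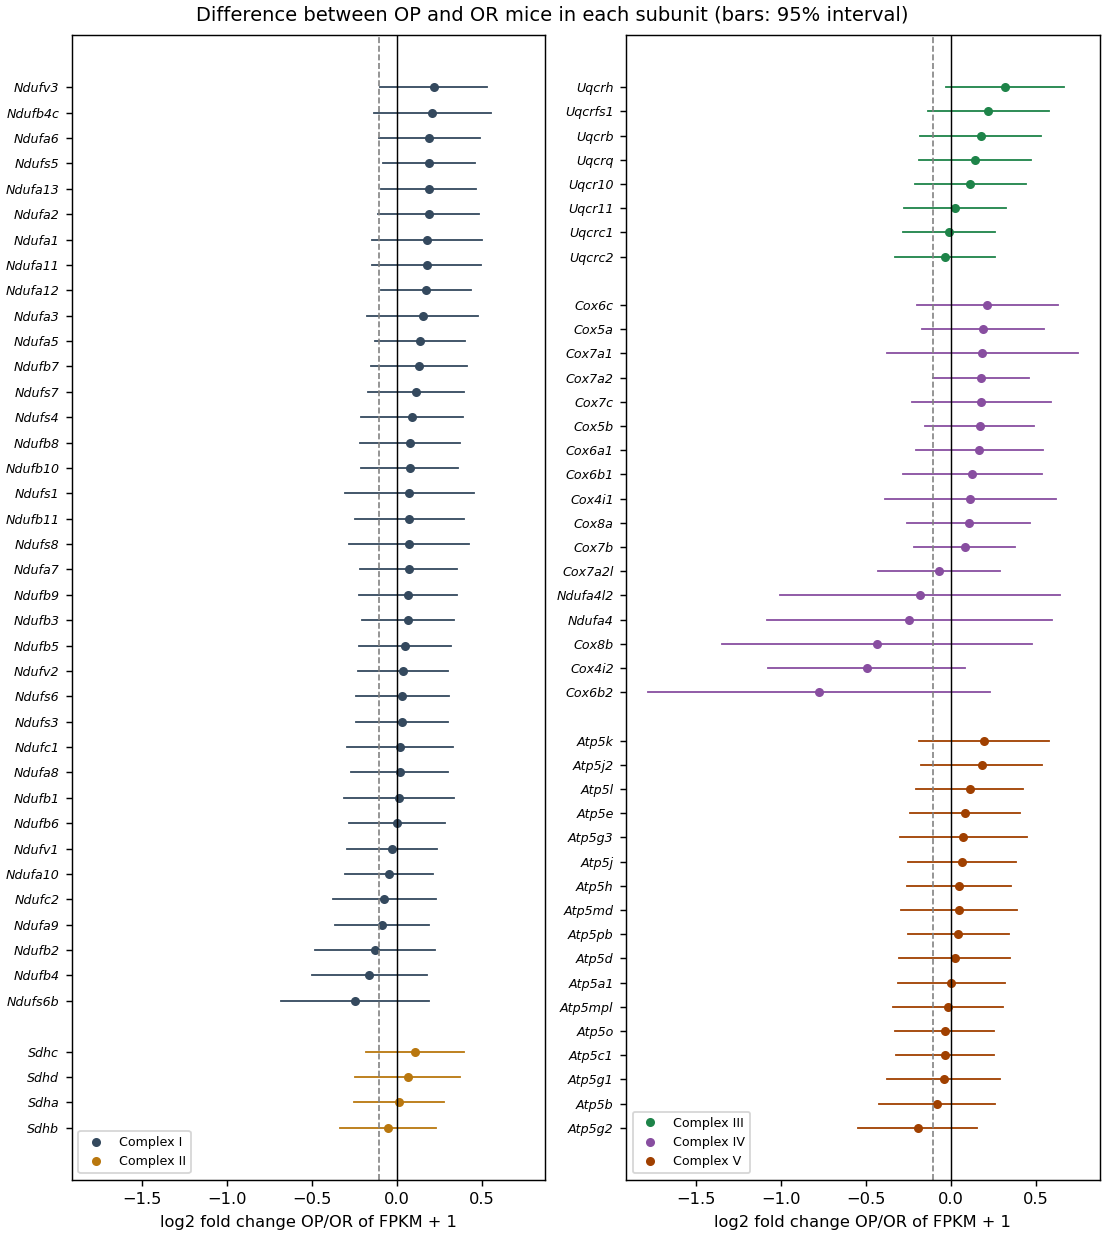
Log2 fold change OP/OR of FPKM + 1 for the subunits tested, with 1 member not drawn (points, limma-trend) with 95% intervals (bars), ordered within complexes I and II (left) and III, IV and V (right); the solid line marks 0 and the dashed line the median of all genes tested, -0.10. Every interval includes 0, and most points lie to the right of 0, as 62 of the 84 tested members did (76 with median-of-ratios scaling, not drawn).

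Summed by complex, the subunits took between 5.91% and 6.62% of the FPKM of a mouse. The total share was 6.62%, 6.53% and 6.02% in OP mice 1, 2 and 3 and 5.91%, 5.92% and 6.06% in OR mice 1, 2 and 3. OP mouse 3 lay below OR mouse 3, so the groups overlapped. Complex III had a share of 0.694%, 0.689% and 0.639% in OP mice and 0.607%, 0.604% and 0.615% in OR mice, and complex I had 1.388%, 1.437% and 1.337% in OP mice and 1.2996%, 1.285% and 1.325% in OR mice. In these 2 complexes every OP mouse was above every OR mouse. The shares overlapped in complex II (0.135% to 0.154% in OP mice and 0.138% to 0.146% in OR mice), complex IV (1.98% to 2.38% and 1.92% to 1.99%) and complex V (1.92% to 2.15% and 1.94% to 2.00%). The median log2 fold change was 0.07 in complex I, 0.04 in complex II, 0.13 in complex III, 0.11 in complex IV and 0.04 in complex V. With median-of-ratios scaling these medians were 0.21, 0.18, 0.27, 0.25 and 0.18. They also moved with single mice, to 0.03 in complex I and -0.01 in complex V without OP mouse 2, to 0.05 in complex III and 0.08 in complex IV without OP mouse 1, and to -0.002 in complex II without OR mouse 1. The complexes did not rise and fall together in every mouse. The ratio of the summed FPKM of complex IV to that of complex V was 1.18 in OP mouse 1 and between 0.972 and 1.03 in the other 5 mice.

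**Figure D2:**
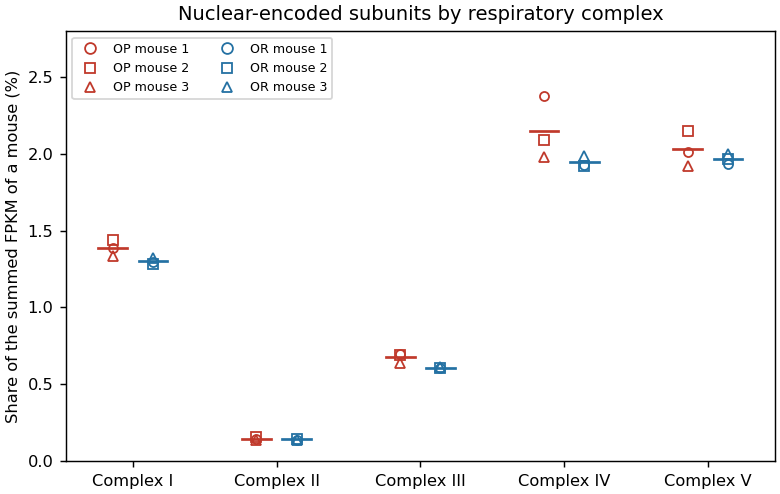
Share of the summed FPKM of a mouse (vertical axis, percent) taken by the nuclear-encoded subunits of each respiratory complex; symbols are mice, horizontal lines are group means, OP in red and OR in blue. The groups are separate in complexes I and III, while OP mouse 1 stands above the rest in complex IV at 2.38%.

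Complex I, the NADH dehydrogenase, was expressed at a median of 173 FPKM over its 38 tested subunits. It has 7 nuclear-encoded core subunits, which carry the flavin and the iron-sulphur clusters, and supernumerary subunits that surround them. The core subunits had a median level of 134 FPKM and the 30 supernumerary subunits tested one of 199 FPKM (24.0 to 558). *Ndufv1*, which binds NADH, had 123, 139.8 and 136 FPKM in OP mice and 139, 135 and 132 FPKM in OR mice. *Ndufs1*, the largest iron-sulphur subunit, had 53.3, 74.3 and 62.2 FPKM in OP mice and 58.0, 67.5 and 53.8 FPKM in OR mice. In both core genes the groups overlapped, and OP mouse 1 was the lowest of the 6. Of the 7 core subunits, 6 had a log2 fold change above 0.

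The complex I subunits whose groups did not overlap were all supernumerary. *Ndufa6*, the most abundant complex I gene, had 593, 601 and 591 FPKM in OP mice and 542, 482 and 539 FPKM in OR mice. *Ndufs5*, the complex I gene with the smallest limma p, had 213, 215 and 190.1 FPKM in OP mice and 182.5, 182.5 and 175 FPKM in OR mice. *Ndufa13*, also known as GRIM-19, had 329.6, 313 and 301 FPKM in OP mice and 293, 267 and 269 FPKM in OR mice. The lowest OP mouse of these genes was 1.03 to 1.09 times the highest OR mouse. *Ndufa5* (219 to 238 FPKM in OP mice, 199 to 214 FPKM in OR mice) and *Ndufa12* (113 to 127 FPKM against 103 to 111 FPKM) were separated by a gap of the same order. The log2 fold change was 0.19 for *Ndufa6* (SE 0.13, limma q = 0.945), 0.19 for *Ndufs5* (SE 0.12) and 0.19 for *Ndufa13* (SE 0.12). The exact two-sided permutation p of these 5 genes was 0.1 each, the smallest that 3 mice against 3 can give. Any gene without overlap gives this value, so it adds nothing to the lack of overlap by which these genes were picked. *Ndufv3*, a supernumerary subunit of the NADH-binding arm, had 253, 214 and 197.2 FPKM in OP mice and 184, 186 and 197.3 FPKM in OR mice, and its groups touched at OP mouse 3 and OR mouse 3.

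A sixth complex I gene without overlap, *Ndufb4c*, shares its sequence with *Ndufb4*. *Ndufb4c* lies on another chromosome than *Ndufb4*. RefSeq lists it as protein coding, and in the GENCODE transcripts its 390 bases matched the *Ndufb4* transcript at 390 of 390 positions. The first 120 bases of the shared run are shown because reads from this run cannot be told apart between the genes, while the *Ndufb4* transcript of 971 bases also has bases outside it; capitals mark the start codon.
Ndufb4 and Ndufb4c: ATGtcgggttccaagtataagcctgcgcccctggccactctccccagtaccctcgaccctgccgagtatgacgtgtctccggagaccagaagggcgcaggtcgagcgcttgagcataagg
*Ndufb4c* had 184, 198 and 185 FPKM in OP mice and 136, 174 and 184 FPKM in OR mice, and *Ndufb4* had 109.5, 111 and 136 FPKM in OP mice and 149, 120.2 and 129 FPKM in OR mice. The log2 fold changes were 0.21 (SE 0.15) and -0.16 (SE 0.14), of opposite sign in genes that are identical over 390 bases. OR mouse 1 was the lowest mouse for *Ndufb4c* and the highest for *Ndufb4*. *Ndufs6b*, which RefSeq lists as a pseudogene, matched the *Ndufs6* transcript at 336 of 348 positions and had 0.30 to 0.92 FPKM, while *Ndufs6* itself had 233 to 268 FPKM.

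Complex II, succinate dehydrogenase, is shared between the respiratory chain and the tricarboxylic acid cycle and is entirely nuclear encoded. Its 4 genes were close to each other in level, between 195 and 225 FPKM. *Sdha*, the flavoprotein that oxidises succinate, had 209.6, 205 and 213 FPKM in OP mice and 202, 220.5 and 199 FPKM in OR mice. *Sdhb*, the iron-sulphur subunit and the most abundant of the 4, had 207, 243 and 215 FPKM in OP mice and 235, 229 and 222 FPKM in OR mice. The groups overlapped in all 4 genes. The membrane anchors *Sdhc* and *Sdhd* had log2 fold changes of 0.11 (95% interval -0.18 to 0.39) and 0.06 (-0.24 to 0.37). With the FPKM as deposited, all 4 intervals of complex II lay within 1.5-fold either way. With median-of-ratios scaling the log2 fold change was 0.24 (SE 0.20) for *Sdhc* and 0.20 (SE 0.21) for *Sdhd*, so this bound depended on the scaling.

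Complex III, the cytochrome bc1 complex, held the subunit with the smallest limma p of all members. *Uqcrh*, the hinge protein that helps cytochrome c dock, had 1015, 839 and 863.5 FPKM in OP mice and 704, 695 and 775 FPKM in OR mice. Every OP mouse was above every OR mouse, and OP mouse 1 was the highest. The mean was 906 ± 95.3 FPKM (SD, n = 3) in OP mice and 725 ± 44.1 FPKM (SD, n = 3) in OR mice. The log2 fold change was 0.32 (SE 0.15, 95% interval -0.03 to 0.67), with an unadjusted limma p of 0.0663 and a q-value of 0.945. *Uqcrfs1*, the Rieske iron-sulphur protein, had 304, 274 and 236 FPKM in OP mice and 206, 260.2 and 232 FPKM in OR mice. Its groups overlapped, with a log2 fold change of 0.22 (SE 0.15). *Uqcr10*, the most abundant subunit of the complex, had 949, 869 and 808 FPKM in OP mice and 778, 821 and 820.4 FPKM in OR mice. The scaffold subunits *Uqcrc1* and *Uqcrc2* lay near 0, with log2 fold changes of -0.01 and -0.03.

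**Figure D3:**
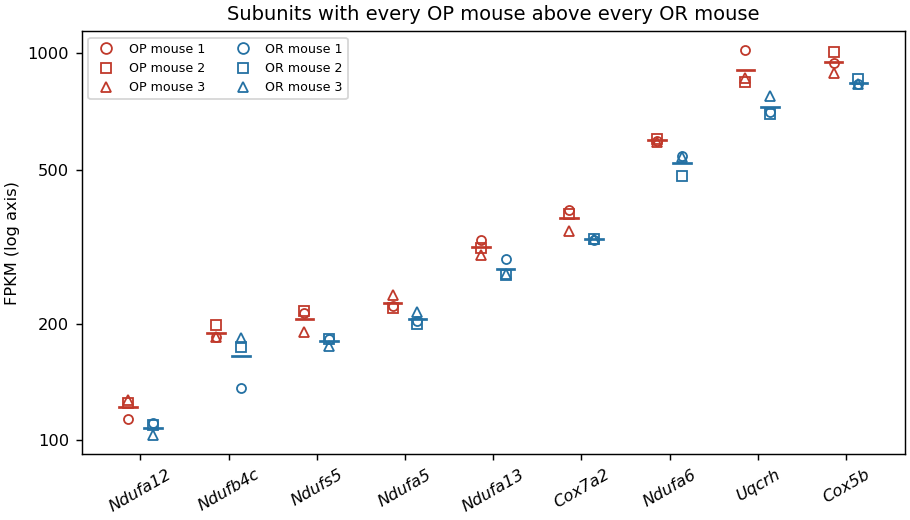
FPKM on a log axis of the 9 subunits in which every OP mouse was above every OR mouse, ordered by mean level; symbols are mice, horizontal lines are group means, OP in red and OR in blue. The gaps between the groups are small, as in *Ndufb4c*, where the lowest OP mouse (184.2 FPKM) and the highest OR mouse (183.9 FPKM) nearly touch.

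Complex IV, cytochrome c oxidase, contains the most abundant and the most variable members. The median coefficient of variation over the 6 mice was 12.6% in complex IV, against 7.98% in complex I, 6.76% in complex II, 9.19% in complex III and 6.52% in complex V. *Cox4i1*, the most abundant of all members, had 2509, 1544 and 2003 FPKM in OP mice and 1794, 1816 and 1877 FPKM in OR mice. The OP mice spanned the whole range, with OP mouse 1 the highest and OP mouse 2 the lowest. OP mouse 1 had the highest value in 9 of the 17 complex IV genes tested. *Cox5b* had 944, 1007 and 886 FPKM in OP mice and 829.5, 856 and 831 FPKM in OR mice. *Cox7a2* had 394, 383 and 347 FPKM in OP mice and 329, 330.5 and 330.4 FPKM in OR mice. In *Cox5b* and *Cox7a2* the groups did not overlap, with log2 fold changes of 0.17 (SE 0.14) and 0.18 (SE 0.12) and limma q-values of 0.945. With the FPKM as deposited, the interval lay within 1.5-fold either way in 8 of the 17 genes.

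Complex IV is also where the subunits have tissue forms, encoded by separate genes. In most pairs the widely expressed form was far above the other one. *Cox6a1* had 1396 to 1772 FPKM and *Cox6b1* 1066 to 1490 FPKM, while *Cox6b2*, the form known from testis, had 0.72 to 6.09 FPKM. *Cox8a* had 1233 to 1508 FPKM and *Cox8b*, the form known from muscle and brown fat, 1.18 to 5.33 FPKM. *Cox7a1*, the heart and muscle form, was the exception, with 242, 167 and 128 FPKM in OP mice and 134, 181 and 146 FPKM in OR mice. It therefore reached 0.371 to 0.614 times the FPKM of *Cox7a2*. The ratio was highest in OP mouse 1 and next highest in OR mouse 2 (0.547). Of the 12 markers of brown adipocytes and striated muscle fixed in the lists, 10 were in the table and summed to 27.7 to 53.7 FPKM in OP mice and 34.3 to 74.5 FPKM in OR mice. *Cox7a2l* had 249, 234 and 317 FPKM in OP mice and 282, 257 and 294 FPKM in OR mice, with overlapping groups.

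The subunits with the largest negative fold changes were low-abundance tissue forms. *Cox4i2*, the form known for its role under low oxygen, had 2.58, 1.52 and 1.41 FPKM in OP mice and 3.42, 2.04 and 3.54 FPKM in OR mice. OR mouse 2 lay below OP mouse 1, so the groups overlapped. The log2 fold change was -0.50 (SE 0.25) with an unadjusted limma p of 0.0841 and a q-value of 0.945. *Cox6b2* had 0.72, 3.63 and 4.31 FPKM in OP mice and 5.34, 3.72 and 6.09 FPKM in OR mice, with a log2 fold change of -0.78 (SE 0.43) that was -0.27 without OP mouse 1. *Cox8b* had 4.97, 1.18 and 4.61 FPKM in OP mice and 4.64, 4.05 and 5.33 FPKM in OR mice, and only OP mouse 2 was below the OR mice. At these levels the pseudocount of 1 shrinks the fold change. The fibroblast, endothelial, smooth muscle and pericyte markers and 9 of 10 macrophage markers, given above, had negative log2 fold changes like *Cox4i2*. A log2 fold change above 0 was found for 11 of 15 colonocyte markers and 7 of 12 enteric neuron and glia markers. The negative sign was shared by 9475 of all 13520 genes tested. The part of these cell types in the value of *Cox4i2* was not tested.

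*Ndufa4* was the most variable of the abundant members, with a coefficient of variation of 30.7% over the 6 mice. It had 238, 538 and 509 FPKM in OP mice and 538, 335 and 600.2 FPKM in OR mice. The low values were OP mouse 1 and OR mouse 2, 1 mouse in each group, and the log2 fold change was -0.24 (95% interval -1.08 to 0.59). The same mice had the highest *Cox7a1* and the highest levels of *Car1*, the carbonic anhydrase of colon surface cells, with 1054 to 6339 FPKM of *Car1* in the other 4 mice. Not all colonocyte markers followed this order, since *Aqp8* (1084 FPKM) and *Slc26a3* (415 FPKM) were highest in OP mouse 2, where *Ndufa4* was high. Whether these values are linked was not tested. *Ndufa4l2*, a paralog known to be induced under low oxygen, had at most 1.37 FPKM and was likewise lowest in OP mouse 1 (listed at 0) and OR mouse 2 (0.18 FPKM).

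**Figure D4:**
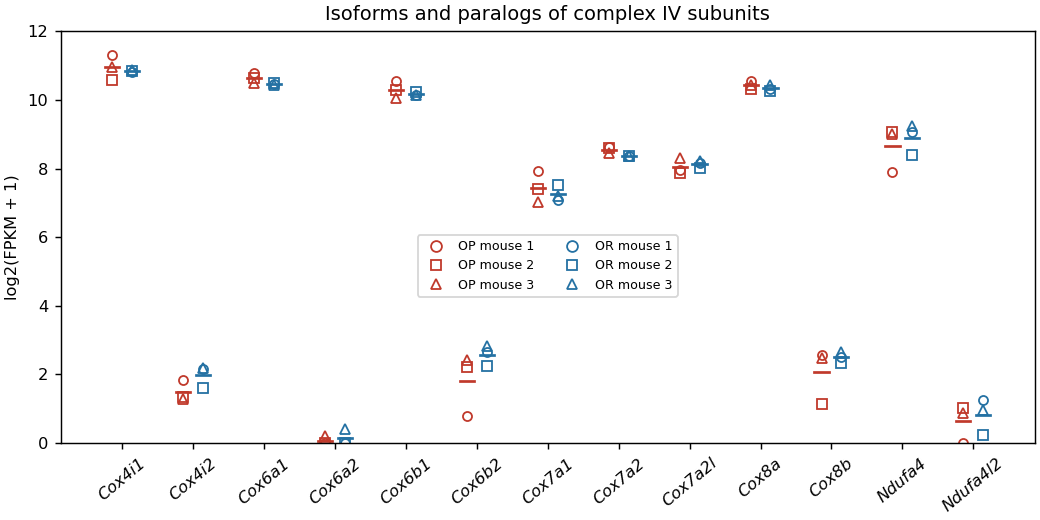
Log2(FPKM + 1) of the tissue forms and paralogs of complex IV subunits; symbols are mice, horizontal lines are group means, OP in red and OR in blue. The tissue forms *Cox4i2*, *Cox6a2*, *Cox6b2*, *Cox8b* and *Ndufa4l2* lie far below the widely expressed forms, *Cox7a1* lies close to them, and *Ndufa4* is low in OP mouse 1 and OR mouse 2.

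Complex V, the ATP synthase, had the lowest median coefficient of variation of the 5 complexes. With the FPKM as deposited, all 17 of its subunits had an interval within 1.5-fold either way, a log2 limit of 0.585. With median-of-ratios scaling the log2 fold change was 0.32 (SE 0.21) for *Atp5j2* and 0.21 (SE 0.21) for *Atp5g3*, so this bound depended on the scaling. *Atp5a1* and *Atp5b* encode the alpha and beta subunits, which form the catalytic head. *Atp5a1* had 602, 693 and 632 FPKM in OP mice and 615, 669.5 and 637 FPKM in OR mice. *Atp5b* had 962, 1115 and 988 FPKM in OP mice and 1076, 1132 and 1034 FPKM in OR mice. Both ranges overlapped, with log2 fold changes of 0.003 (SE 0.13) and -0.08 (SE 0.15). The c ring, which rotates in the membrane, is built from a mature protein of identical sequence that 3 genes encode. Among these, *Atp5g3* (1032 to 1279 FPKM) was above *Atp5g2* (399 to 537 FPKM) and *Atp5g1* (337 to 427 FPKM) in every mouse, while *Atp5g2* and *Atp5g1* had overlapping ranges. *Atp5g2* had 427, 399 and 492 FPKM in OP mice and 537, 444 and 528 FPKM in OR mice, the most negative log2 fold change of the complex at -0.19 (SE 0.15, limma q = 0.945). *Atp5j2*, the membrane subunit f and the most abundant gene of the complex, had 1346, 1413 and 1202 FPKM in OP mice and 1123, 1226 and 1139 FPKM in OR mice. OP mouse 3 lay below OR mouse 2, and the log2 fold change was 0.18 (SE 0.15, limma q = 0.945).

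The abundant subunits had a lower median spread between mice than all abundant genes, which were lower in level. The median coefficient of variation was 7.88% over the 79 members with a mean of at least 20 FPKM and 14.5% over all 4365 tested genes at or above that level. Their median levels were 309 and 43.7 FPKM. Without that cut on level, the median coefficient of variation was 8.09% over the 84 tested members and 21.4% over all genes tested. Also without the cut, it was 9.22% in respiratory chain partners and 9.73% in mitochondrial ribosomal proteins. The tricarboxylic acid cycle had 10.3% and assembly factors 10.5%. Biogenesis regulators had 13.5% and cytosolic ribosomal proteins 13.8%. A low spread was therefore not particular to the subunits. The spread between members was much wider than the spread between mice, with mean levels of the 84 tested members from 0.73 FPKM in *Ndufa4l2* to 1924 FPKM in *Cox4i1*. These values describe the 6 libraries and were not tested.

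Other genes of the pathway were described in the same way. Of 28 respiratory chain partners outside the symbol rule, such as cytochrome c and the adenine nucleotide carriers, 14 had a log2 fold change above 0, with a median of -0.002. The counts were 14 of 47 for assembly factors (median -0.06), 3 of 16 for regulators of mitochondrial biogenesis (-0.09) and 7 of 18 for the tricarboxylic acid cycle (-0.05). Protein synthesis genes gave 25 of 78 for mitochondrial ribosomal proteins (-0.06) and 14 of 80 for cytosolic ribosomal proteins (-0.10). Over all genes tested, 4045 of 13520 (29.9%) had a log2 fold change above 0, with a median of -0.10. In each of these 6 lists 0 genes were called and 0 had an unadjusted limma p below 0.05. That p was reached by 0.503% of all genes tested higher in OP mice and 3.53% lower. The subunits had a higher median than each of these lists, a difference that was not tested.

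Among the 28 partners, 1 had every OP mouse below every OR mouse, against 6.81% of all genes tested. For every OP mouse above, the values were 0 of 28 and 1.63%. Of the 4 genes shown here 3 gave overlapping groups, and the fourth was picked as the partner with the smallest limma p. *Cyc1*, the cytochrome c1 of complex III, had 213, 249.6 and 238 FPKM in OP mice and 222, 250.5 and 239.8 FPKM in OR mice. *Cycs*, cytochrome c, had 133, 129 and 100.2 FPKM in OP mice and 96.0, 127 and 105 FPKM in OR mice. *Ndufab1*, the mitochondrial acyl carrier protein and a complex I subunit, had 257, 244 and 245 FPKM in OP mice and 234, 261 and 238 FPKM in OR mice. The fourth, *Slc25a4*, which exchanges ADP for ATP across the inner membrane, had 56.6, 53.4 and 54.7 FPKM in OP mice and 89.4, 58.2 and 70.8 FPKM in OR mice. Every OP mouse was below every OR mouse. The log2 fold change was -0.38 (SE 0.17), with an unadjusted limma p of 0.0565 and a q-value of 0.945. *Ppargc1a*, the coactivator PGC-1alpha that drives mitochondrial biogenesis, had 5.75, 10.8 and 11.2 FPKM in OP mice and 11.7, 5.26 and 5.06 FPKM in OR mice, with overlapping groups. *Pprc1*, a related coactivator and the regulator with the smallest p, had 2.49, 8.08 and 4.99 FPKM in OP mice and 8.93, 6.84 and 13.2 FPKM in OR mice, a log2 fold change of -0.85 (SE 0.38, limma q = 0.945). The genes with the smallest p among assembly factors, *Nubpl*, the tricarboxylic acid cycle, *Idh3g*, and the ribosomal lists, *Mrps36* and *Rpl38*, also had negative log2 fold changes of -0.53, -0.21, -0.27 and -0.40, with limma q-values of 0.945.

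Many nuclear genes of the respiratory chain are known to be controlled by NRF1, by ETS factors of the NRF2 (GABP) type and by YY1. RefSeq promoter windows (GRCm38.p6, 250 bases before to 50 bases after the start) were available by symbol for 69 of the 86 members and were searched on both strands for 4 fixed motifs. *Atp5a1*, *Atp5mpl*, *Cox4i1*, *Cox4i2*, *Cox6a2*, *Cox6c*, *Ndufa2*, *Ndufa4l2*, *Ndufb4c*, *Ndufb9*, *Ndufs1*, *Ndufs6b*, *Sdhc*, *Uqcrb*, *Uqcrc2* and *Uqcrq* were among the members that were not matched. The windows below belong to *Ndufa6* and *Uqcrh*, the abundant members without overlap in complexes I and III, and to *Ndufa3*, *Ndufs7* and *Atp5j2*, which show the YY1 letters after the start; capitals mark the motif found. The position of *Ndufa6* is chr15:82354292-82354411 (minus strand, bases -120 to -1), that of *Uqcrh* chr4:116075071-116075190 (minus strand, bases -120 to -1), that of *Ndufa3* chr7:3617385-3617412 (plus strand), that of *Ndufs7* chr10:80249463-80249490 (plus strand) and that of *Atp5j2* chr5:145191501-145191528 (minus strand).
Ndufa6, NRF1: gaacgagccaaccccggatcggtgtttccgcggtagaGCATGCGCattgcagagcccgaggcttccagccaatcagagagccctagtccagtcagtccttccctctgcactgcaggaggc
Uqcrh, ETS: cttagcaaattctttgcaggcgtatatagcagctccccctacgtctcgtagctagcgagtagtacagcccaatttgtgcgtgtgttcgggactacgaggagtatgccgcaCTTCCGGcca
Ndufa3, YY1: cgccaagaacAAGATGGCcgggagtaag
Ndufs7, YY1: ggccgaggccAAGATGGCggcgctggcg
Atp5j2, YY1: ccaggacttcAAGATGGCgtcactcggt

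The NRF1 letters GCATGCGC were in the window of 10 of 69 members (14.5%), of 5.64% of the tested genes with a window and of 3.05% of all 27025 genes with a window. These members were *Atp5g2*, *Atp5k*, *Atp5l*, *Cox6a1*, *Ndufa11*, *Ndufa6*, *Ndufa8*, *Sdhb*, *Uqcr11* and *Uqcrc1*, at least 1 gene of each complex. The ETS letters CCGGAAG were in 17 of 69 (24.6%), against 19.0% of tested genes and 9.93% of all genes. The YY1 letters AAGATGGC were in 10 of 69 (14.5%), against 4.98% and 3.19%, and in 8 of these 10 members they lay after the start. The TATA letters TATAAA were in 7 of 69 (10.1%), against 9.32% and 15.7%. The ETS letters end in AAG, with which the YY1 letters begin, so a match to one can share bases with a match to the other. Of the 9 members without overlap, *Ndufa6* carried the NRF1 letters, *Uqcrh* the ETS letters, and the others with a window carried none of the 4 motifs. A match describes the letters only, and binding was not measured.

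**Figure D5:**
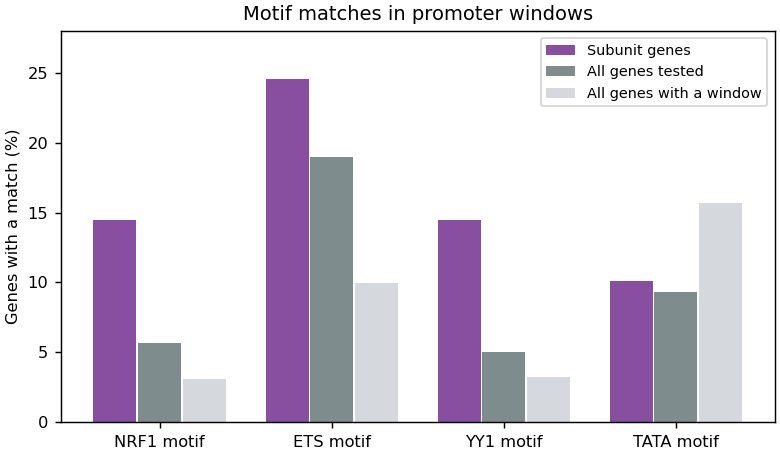
Share of genes with a motif match in the 300-base promoter window (vertical axis, percent) for the 69 subunit genes with a window, all tested genes with a window and all genes with a window. Subunit genes have a match to the NRF1 and YY1 letters in 14.5% each, against 5.64% and 4.98% of tested genes.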

How the data were processed

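Colon RNA of 3 OP and 3 OR mice was sequenced, 1 library per mouse. The authors deposited FPKM values with 2 decimals for each mouse. By the methods, strand-specific libraries of enriched mRNA were read on DNBSEQ, and reads were cleaned with SOAPnuke, aligned with Bowtie2 and quantified with RSEM on a GRCm39 gene set. The submitters' processing notes and labels name Bowtie2 2.2.5, RSEM 1.2.12 and HISAT2 2.0.4, and the methods give other versions of the first pair. The study's own test needs counts and cannot be run on FPKM.

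Groups came from the labels. Genes with at least 0.5 FPKM in at least 3 mice (13520) were compared with limma-trend (limma 3.58.1, R 4.3.3) on log2(FPKM + 1) without covariates, with Benjamini-Hochberg q-values over all of them. On this scale fold changes of weakly expressed genes come out too small. The fit was tested on simulated data. Exact permutation tests used SciPy 1.17.1. Depth is unknown, so no counting intervals are given.

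Members and lists were chosen with earlier results of these data known. Named were, per complex, the 2 genes with the smallest p and the most abundant gene, then the tissue forms, c-ring and catalytic genes, the members without overlap and the smallest-p gene of other pathway lists. Other genes were named after their values were seen. Promoter windows and transcripts are of GRCm38, another build than that of the authors. Values of 1 member are not reported here.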

Additional observations from a re-analysis of the deposited data

How the results depend on the processing

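At a q-value below 0.2, 0 subunits were called in each direction in all 14 alternatives, and the smallest q-value of any of the 35 named members in them was 0.522. Median-of-ratios scaling moved the median of all genes tested from -0.10 to 0.01 and the subunits with it: the median log2 fold change was 0.21 over the subunits, 0.21 in complex I, 0.18 in complex II, 0.27 in complex III, 0.25 in complex IV and 0.18 in complex V, and 90.5% of the subunits against 52.0% of all genes were above 0. It turned the sign of *Sdhb* (0.089), *Cox7a2l* (0.0704), *Atp5g1* (0.10), *Ndufv1* (0.11) and *Atp5b* (0.0562). Sample weights turned *Sdhb* (0.00404), *Cox4i1* (-0.0362), *Atp5g1* (0.0192) and *Ndufv1* (0.00984), and gave 1 subunit lower in OP mice at an unadjusted limma p below 0.05, *Cox4i2*. Leaving out 1 mouse at a time gave 0 to 1 such subunits, *Cox4i2* without OP mouse 1 or OR mouse 2 and *Cox6b2* without OP mouse 3. Over the same fits the median log2 fold change ranged from 0.03 to 0.10 over the subunits, 0.03 to 0.09 in complex I, -0.002 to 0.08 in complex II, 0.05 to 0.16 in complex III, 0.08 to 0.13 in complex IV and -0.01 to 0.06 in complex V. The signs of *Sdha* (-0.0132 to 0.0619), *Sdhd* (-0.00434 to 0.14), *Cox4i1* (-0.0566 to 0.29), *Cox7a1* (-0.0534 to 0.40), *Cox7a2l* (-0.20 to 0.0189), *Cox8b* (-0.69 to 0.0348), *Ndufa4* (-0.50 to 0.14), *Ndufa4l2* (-0.47 to 0.14), *Atp5g1* (-0.13 to 0.0368), *Atp5a1* (-0.0533 to 0.0479), *Ndufv1* (-0.0667 to 0.0276) and *Ndufs1* (-0.0462 to 0.19) depended on single mice. The cause was not tested.

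Chosen after seeing the data, leaving out 1 mouse gave 10 to 31 subunits with all OP mice above all OR mice (31 without OP mouse 3, against 4.45% of all genes) and 0 to 6 with all below (6 without OP mouse 2, against 15.4%); with fewer mice separation is easier. The count was 10 in TPM. The replicate numbers name different mice, and deviations of same-numbered mice correlated between -0.16 and 0.07 across genes, so they were not taken as pairs; with the replicate number as a block, 0 subunits were called and the median stayed at 0.07. The other alternatives (limma without trend, a pseudocount of 0.1, no filter, at least 1 FPKM in all 6 mice, *Ndufa4* and *Ndufa4l2* with complex I) changed no call. FPKM without read totals gives no counting error for the low members.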
